A study of Brassica rapa subsp. chinensis with 6 samples.

Results

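Pakchoi (Brassica rapa subsp. chinensis) is a leafy vegetable of the cabbage family, and its strain 564Y is a chlorotic, that is yellowing, mutant of the wild type strain 564. The RNA came from the shoot, labelled the aboveground parts, at the trifoliate stage. The mutant 564Y and the wild type 564 had 3 libraries each, which the labels call independent biological replicates. The extraction protocol also mentions sampling times that the sample labels do not give. The labels name no mutated gene, no treatment and no heat exposure, and they give neither the plants' age nor their growth temperature. The genes described are 7 heat shock genes, taken by their identifiers from 2958 genes that the authors had called as different between the strains. They are a neighbouring pair matched to the heat shock factor HSFA7A (Bra012828 and Bra012829), a neighbouring pair matched to HSFB2A (Bra029291 and Bra029292), the chaperone gene HSP101 (Bra015922), and 2 genes named for heat shock that had no read in the mutant (Bra014918 and Bra003501). The values that chose these genes come from the comparison of the same 6 libraries, so levels and folds below are a description, with no test.

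Heat shock factors are transcription factors that bind short repeated motifs in promoters of chaperone genes when proteins unfold. In plants they form large families. Class A factors, such as HSFA2 and HSFA7A, can activate transcription, while class B factors, such as HSFB2A, lack that kind of activation domain and are mostly known as repressors. HSP101 is a cytosolic ATP-driven disaggregase that pulls proteins out of aggregates and is needed for acquired heat tolerance in Arabidopsis. J-domain proteins deliver unfolded clients to HSP70 and start its ATP cycle.

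The table held 1766 genes higher and 1192 genes lower in the mutant, each past the authors' limits of 0.001 for the adjusted p and 1 for the absolute log2 ratio. Its mean read counts summed to 1677855 reads per library in the mutant and 1348884 in the wild type, which covers called genes only and is not the library depth. Genes that were not called were not analysed here, so the labelled tissue could not be checked against defining markers. Whole read counts per library were worked out from the deposited group values for all 7 genes, and the libraries are called A, B and C within each group by rising size factor. These letters are not the replicate numbers of the labels. Values below are normalised read counts, that is reads divided by the size factor of the library, and intervals in brackets after a fold are 95% exact counting intervals that leave out the spread between plants. The gene lengths in the table are coding lengths. Nothing in the labels or the table says how reads shared by near-identical copies were assigned.

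Of the 7 genes, the 4 heat shock factor genes and HSP101 were higher in the mutant, where 59.7% of the genes of the table were higher. The other 2 were lower, where 40.3% of the table was lower. Since the genes were picked from this comparison, nothing follows from these counts. All 5 higher genes also passed an absolute log2 ratio of 2, as did 24.6% of the table in that direction. HSP101 did not keep to that limit under other scalings: its difference of mean log2(normalised count + 1) was 2.21 with the authors' size factors, 1.90 with TMM and 1.37 with DESeq2 size factors, both taken over the called genes. The libraries of the groups did not overlap in any of the 7 genes, which was so for 100% of the 2411 genes whose libraries were recovered in both groups.

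**Figure D1:**
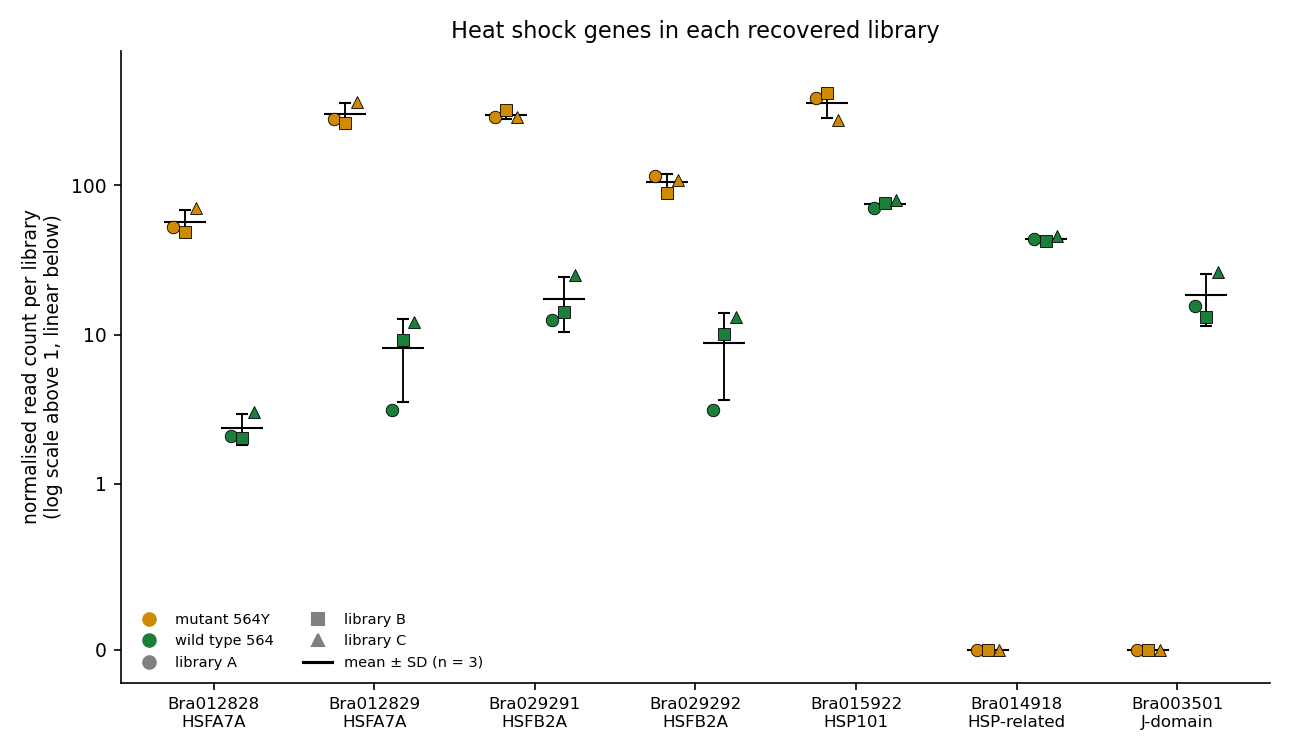
Normalised read count of each of the 7 genes (log scale above 1, linear below) in the 3 recovered libraries of mutant 564Y (orange) and of wild type 564 (green). Marker shapes give libraries A, B and C, and bars give the mean ± SD (n = 3 libraries). The 5 genes at the left lie higher in every mutant library, and the 2 at the right lie at 0 in every mutant library.

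By group means, the HSFA7A pair had the largest folds of the 5 genes with reads in both groups. For Bra012828 this place is uncertain, since its interval (11.4 to 60.7) contains that of Bra029291 (13.0 to 23.3). Bra012829 (747 bases) had 279.4, 262.7 and 365.0 normalised reads in mutant libraries A, B and C, against 3.12, 9.16 and 12.1 in wild type libraries A, B and C. Its mean was 302.3 ± 54.9 in the mutant and 8.14 ± 4.60 in the wild type (SD, n = 3 libraries each), a 37.1-fold difference (24.8 to 58.3). The lowest mutant library held many times the level of the highest wild type library, and the wild type value rested on 24 reads in all. By fold it stood at rank 56 of the 1681 genes that were higher in the mutant and had reads in both groups.

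Its neighbour Bra012828 (810 bases) was lower in level in both strains. It had 52.8, 49.1 and 70.1 normalised reads in mutant libraries A, B and C, against 2.08, 2.03 and 3.04 in wild type libraries A, B and C. The wild type values are 2, 2 and 3 reads, so this gene was close to the limit of detection there and its fold of 24.0 has a wide counting interval (11.4 to 60.7). Both genes of the pair were highest in mutant library C and lowest in mutant library B. Both genes were matched to the same HSFA7A protein of Arabidopsis lyrata, and their identifiers follow each other, but the files hold no coordinates.

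The ratio between the HSFA7A genes differed little between the mutant libraries. Per kb of coding length, Bra012829 was 5.74, 5.80 and 5.64 times the level of Bra012828 in mutant libraries A, B and C, against 1.63, 4.88 and 4.34 times in wild type libraries A, B and C. From the group means the ratio was 5.72 in the mutant (4.87 to 6.75) and 3.70 in the wild type (1.55 to 10.2). The mutant interval is wider than the range over the mutant libraries, so these counts cannot show that the ratio is fixed. The wild type interval contains the mutant ratio, so at this depth a change in the balance of the pair was not detectable.

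The HSFB2A pair showed the same direction from a somewhat higher level in the wild type. Bra029291 (801 bases) had 286.2, 321.3 and 289.1 normalised reads in mutant libraries A, B and C, against 12.5, 14.2 and 25.3 in wild type libraries A, B and C. Its mean was 298.9 ± 19.5 in the mutant and 17.3 ± 6.95 in the wild type (SD, n = 3 libraries each), a 17.2-fold difference (13.0 to 23.3). The mutant libraries were close together, with a coefficient of variation of 6.52%, while wild type library C stood above the other two.

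Its neighbour Bra029292 (768 bases) had 116.2, 89.5 and 109.5 normalised reads in mutant libraries A, B and C, against 3.12, 10.2 and 13.2 in wild type libraries A, B and C. The mean was 105.1 ± 13.9 in the mutant and 8.82 ± 5.15 in the wild type (SD, n = 3 libraries each), an 11.9-fold difference (7.99 to 18.5). Unlike the HSFA7A pair, these neighbours did not keep one order over the mutant libraries, since Bra029291 was highest in library B, where Bra029292 was lowest. Some of these orders rest on small differences. Reads in mutant libraries A and B were 54 and 51 for Bra012828, and 286 and 273 for Bra012829. The contrast between the pairs was not tested. Per kb, Bra029291 was 2.36, 3.44 and 2.53 times Bra029292 in mutant libraries A, B and C, against 3.84, 1.34 and 1.84 times in wild type libraries A, B and C. The group ratios were 2.73 in the mutant (2.40 to 3.10) and 1.89 in the wild type (1.15 to 3.15), and these intervals overlap.

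**Figure D2:**
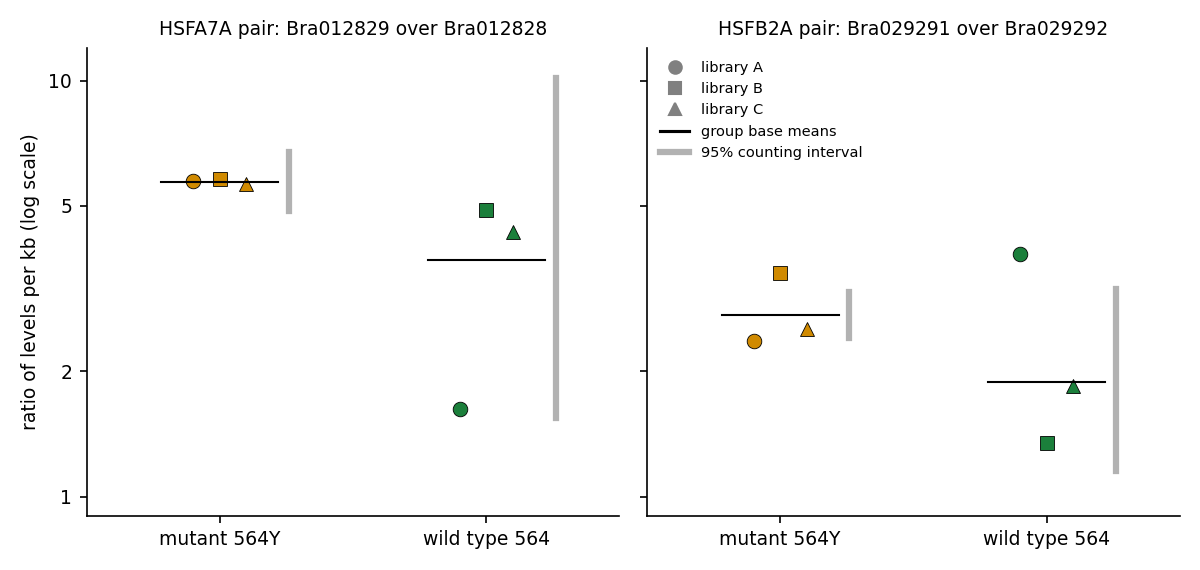
Ratio of normalised read counts per kb of coding length (log scale) between the neighbouring genes of the HSFA7A pair (left panel) and of the HSFB2A pair (right panel), in mutant 564Y (orange) and wild type 564 (green). Points are recovered libraries, black lines the ratio of group means and grey bars 95% exact counting intervals. The HSFA7A ratio lies between 5.64 and 5.80 in the mutant libraries, and in both pairs the wild type interval overlaps that of the mutant.

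Each factor had 1 further gene in the table that is not a neighbour of its pair by identifier. Bra033468, a short HSFA7A match of 381 bases, averaged 29.0 ± 3.50 normalised reads in the mutant and 2.03 ± 1.76 in the wild type (SD, n = 3 libraries each), a 14.3-fold difference (6.32 to 40.0). Bra010049, the remaining HSFB2A match, averaged 132.1 ± 8.29 in the mutant and 63.1 ± 3.04 in the wild type (SD, n = 3 libraries each), only 2.09-fold higher (1.76 to 2.50). The HSFB2A copies therefore covered a range of folds, and the copy with the highest wild type level had the smallest. Added over their 3 genes each, HSFA7A matches had 388.7 normalised reads in the mutant and 12.6 in the wild type (31.0-fold), and HSFB2A matches had 536.1 in the mutant and 89.3 in the wild type (6.00-fold). These sums do not depend on how reads were split among the 3 copies, as long as each read was counted once.

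HSP101 was higher by a smaller factor and from a higher read count, in a longer gene. Per kb of coding length its wild type level was 27.7 ± 1.69. The genes of the HSFA7A and HSFB2A pairs ranged from 2.94 ± 0.70 (Bra012828) to 21.7 ± 8.67 (Bra029291). Bra015922 (2736 bases) had 387.8, 416.6 and 273.8 normalised reads in mutant libraries A, B and C, against 70.8, 76.3 and 80.0 in wild type libraries A, B and C. The mean was 359.4 ± 75.5 in the mutant and 75.7 ± 4.63 in the wild type (SD, n = 3 libraries each), a 4.75-fold difference (4.11 to 5.51). Mutant library C, the highest for both HSFA7A genes, was the lowest for HSP101.

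The spread of HSP101 was uneven between the strains. Its coefficient of variation was 21.0% in the mutant and 6.12% in the wild type. With 68, 75 and 79 wild type reads, counting error alone would be expected to spread libraries by more than 6.12%. In the mutant, 95.8% of the 406 recovered genes within 1.5 times its level had a lower coefficient of variation, with a median of 8.96%. In the wild type this was so for 13.6% of 492 such genes, with a median of 14.9%. All genes compared were called as different between the strains, so they are a selection. Bra012829 was also variable for its level in the mutant, at 18.2% against a median of 8.93% over 428 genes.

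The 2 lower genes had no read in any mutant library. Bra014918 (1911 bases) had 0 reads in mutant libraries A, B and C, against 43.7, 42.7 and 45.5 normalised reads in wild type libraries A, B and C. It was at least 45.5-fold lower in the mutant, with the mutant set at a limit of 3 reads over the group. Its wild type libraries had a coefficient of variation of 3.25%. With 42, 42 and 45 reads, counting error alone would be expected to spread them more, so this shows no unusual evenness. Its name rests on a match to a Brassica oleracea protein called heat shock protein-related, with an E-value of 3.94e-15, the weakest match among the 7 genes, so what this gene encodes is uncertain.

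Bra003501 (1116 bases), matched to a J-domain heat shock protein of Arabidopsis lyrata with an E-value of 1.11e-157, had 0 reads in mutant libraries A, B and C, against 15.6, 13.2 and 26.3 normalised reads in wild type libraries A, B and C. It was at least 19.0-fold lower by the same limit. Both genes belong to 63 genes of the table with no read in the mutant (2.13%), among which they ranked 21 and 40 by wild type level. Within 10 identifier numbers of Bra014918 the table held 0 other genes, and within 10 of Bra003501 it held 1, Bra003511, which was lower in the mutant but not at 0.

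**Figure D3:**
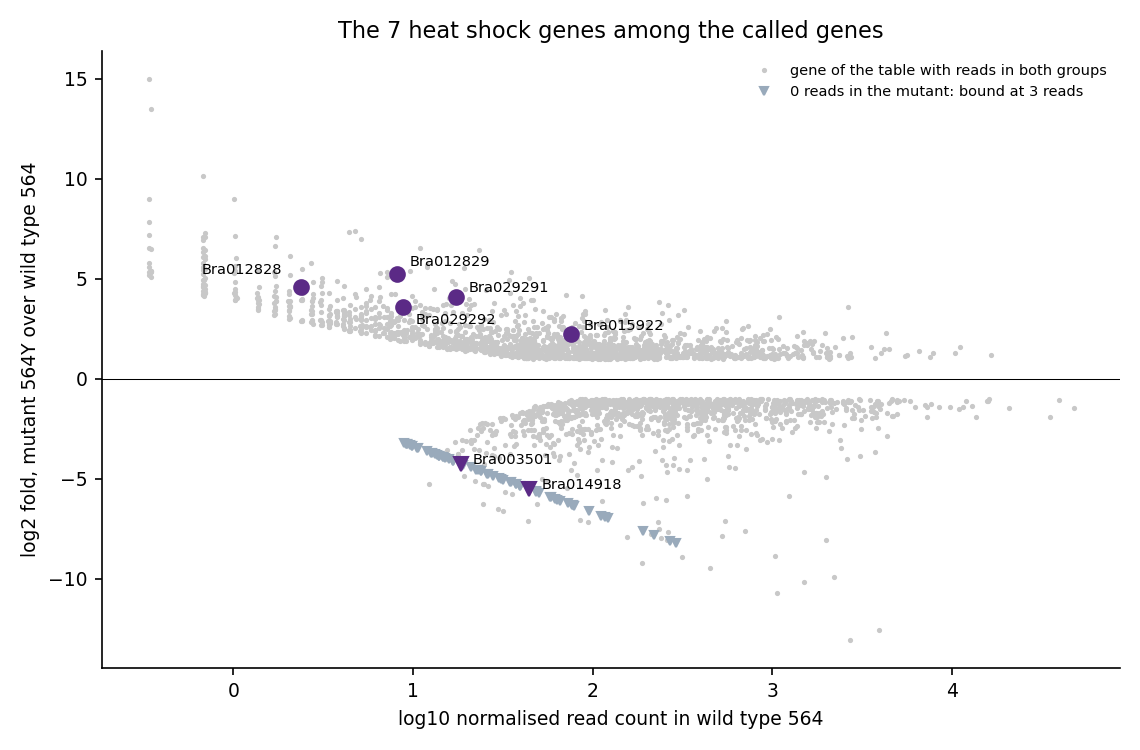
Log2 fold of mutant 564Y over wild type 564 against the log10 normalised read count in the wild type, for genes of the table with reads in both groups (grey) and for the 63 genes with 0 reads in the mutant, drawn at the bound given by 3 reads over the group (triangles). The 7 heat shock genes are in purple: the 4 factor genes lie at low wild type levels with log2 folds of 3.57 to 5.21, HSP101 lies at 2.25, and Bra014918 and Bra003501 lie on the line of bounds.

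Per kb of coding length, the order of the levels differed between the strains. In the mutant the order was Bra012829 (404.8 ± 73.5), Bra029291 (373.2 ± 24.3), Bra029292 (136.8 ± 18.1), HSP101 (131.4 ± 27.6) and Bra012828 (70.8 ± 13.9; normalised reads per kb, SD, n = 3 libraries). In that order the libraries of Bra012829 and Bra029291 overlapped, as did those of Bra029292 and HSP101. In the wild type HSP101 led at 27.7 ± 1.69, followed by Bra014918 at 23.0 ± 0.75, Bra029291 at 21.7 ± 8.67, Bra003501 at 16.5 ± 6.25, Bra029292 at 11.5 ± 6.71, Bra012829 at 10.9 ± 6.15 and Bra012828 at 2.94 ± 0.70. There only HSP101 and Bra012828 did not overlap the genes next to them in the order. HSP101 did overlap Bra029291, which reached 31.6 in library C against 25.9 to 29.2 in the HSP101 libraries. Thus Bra012829 stood first in the mutant and second to last in the wild type.

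In the wild type, 1 library carried the highest value of every one of the 7 genes. Library C was the highest wild type library in 7 of 7 genes, while it was the highest in 38.0% of the 2265 recovered genes with reads in both groups. Over the 22 recovered genes of the heat shock lists described next, it was the highest in 16 and library A the lowest in 13. For Bra012828 and Bra014918 the difference between libraries amounts to a few reads. In the mutant, library B was the highest in 10 of the 22 genes, library A in 6 and library C in 4, and the 2 remaining genes had no read. What sets the wild type libraries apart was not tested.

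**Figure D4:**
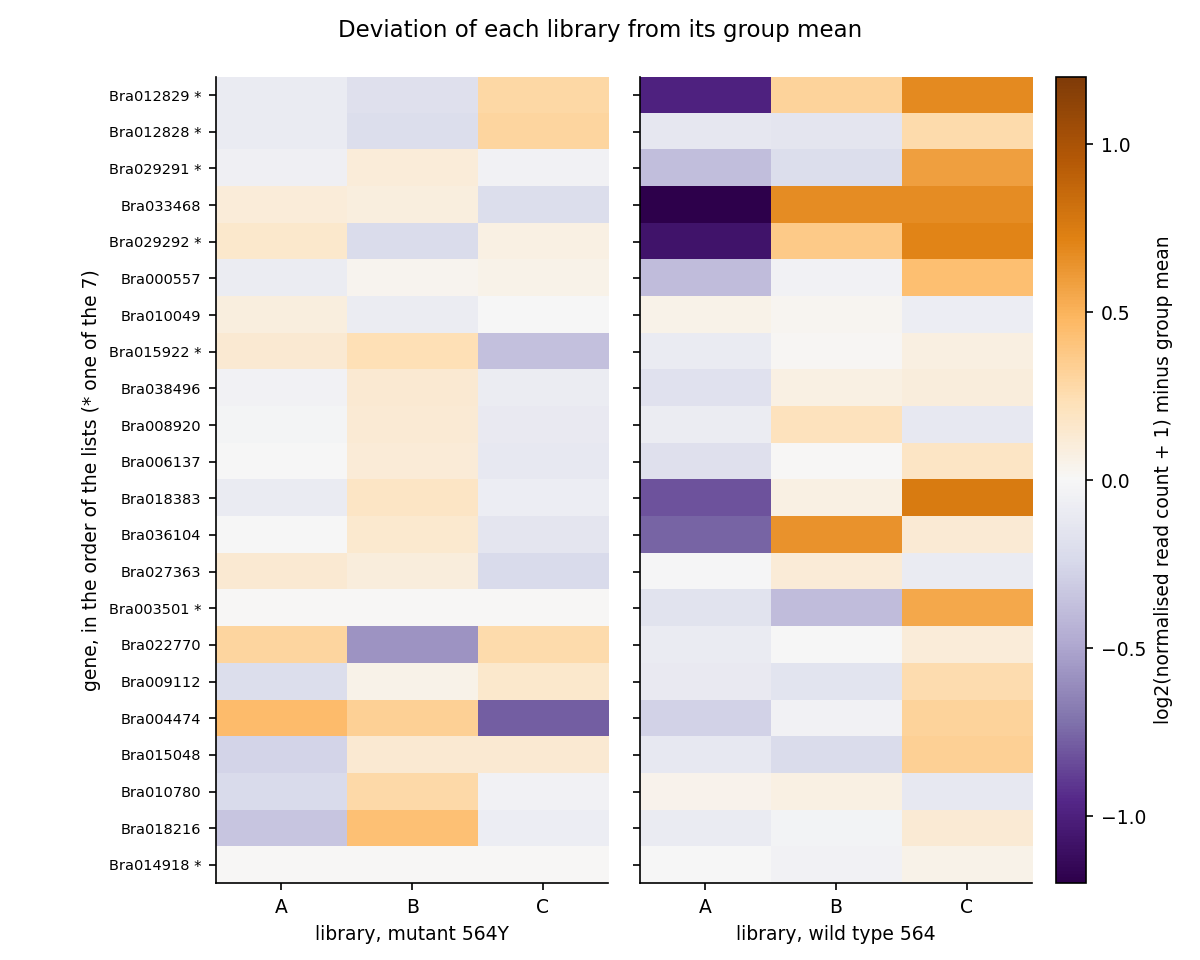
Deviation of each recovered library from its group mean, as log2(normalised read count + 1), for the 22 recovered genes of the heat shock lists (rows, in the order of the lists, with the 7 genes starred), in mutant 564Y (left) and wild type 564 (right). Orange is above and purple below the group mean. Wild type library C is above the mean in each of the 7 starred genes, while mutant library C is above it for both HSFA7A genes and below it for HSP101.

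The wider heat shock and chaperone lists put these genes in context. Of 25 genes in the table that were matched to 7 such lists, 18 were higher and 7 lower in the mutant, a share of 72.0% higher beside 59.7% over the table. Their median log2 ratio was 1.31, beside 1.16 over all 2958 genes, with genes at 0 reads set at their bound. Without the 7 genes themselves, 13 of 18 were higher (72.2%), and the median log2 ratio was 1.19, close to that of the table. Called genes are a selection, so these shares say nothing of list members that were not called.

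Heat shock factors were higher in 7 of 7 called genes, beside 59.7% over the table, and 4 of the 7 belong to the pairs. Their median log2 ratio was 3.84, but the 4 pair genes were picked from this comparison. Outside the pairs the log2 ratios were 3.84 (Bra033468), 1.31 (Bra000557) and 1.07 (Bra010049). The median over the 1681 higher genes with reads in both groups was 1.70. The other 3 are Bra033468 and Bra010049, given above, and a match to HSFA2 (Bra000557), the factor that sustains the heat response in Arabidopsis, with 402.6 ± 20.4 normalised reads in the mutant and 161.9 ± 47.6 in the wild type (SD, n = 3 libraries each), 2.49-fold higher (2.24 to 2.77). HSP101 was the single HSP100 gene in the table.

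Small heat shock proteins hold unfolded proteins until other chaperones refold them. Genes of this list were higher in 3 of 3 called genes, beside 59.7% over the table. The list rests on product words that name the class. Bra018216, named only heat shock protein, has a similar coding length (474 bases, against 423 to 471 in the list). It fell outside the list and was 2.88-fold lower. The class II gene Bra008920 averaged 22.9 ± 1.97 normalised reads in the mutant and 3.41 ± 0.57 in the wild type, 6.71-fold higher (3.44 to 14.6). The class II gene Bra006137 was 3.47-fold higher (2.61 to 4.66), and the class I gene Bra018383 averaged 184.2 ± 20.5 in the mutant and 57.7 ± 30.1 in the wild type, 3.19-fold higher (2.69 to 3.81; SD, n = 3 libraries each).

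The HSP70 machinery went both ways. A gene matched to a heat shock cognate 70 kDa protein (Bra001457) had authors' means of 1277 in the mutant and 429.0 in the wild type, 2.98-fold higher, while a putative HSP70 gene (Bra038496) averaged 113.1 ± 9.75 in the mutant and 338.7 ± 34.9 in the wild type (SD, n = 3 libraries each), 3.00-fold lower. No gene was matched to HSP90. Of 3 J-domain genes, Bra036104 was 3.38-fold higher (2.48 to 4.68) and Bra027363 was 2.25-fold higher (2.03 to 2.49), while Bra003501 had no read in the mutant.

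The list of other heat-response genes had 3 higher and 3 lower members, beside 59.7% higher over the table. A DREB2-2 match (Bra022770) averaged 73.5 ± 22.9 normalised reads in the mutant and 11.2 ± 0.87 in the wild type (SD, n = 3 libraries each), 6.54-fold higher (4.52 to 9.73). DREB2 factors act in drought and heat responses, and the DREB2A match Bra009112 was 2.17-fold higher. The sti1-like gene Bra018477, a co-chaperone that links HSP70 to HSP90, was 2.32-fold higher. On the lower side was MBF1C (Bra015048), a transcriptional coactivator needed for heat tolerance in Arabidopsis, with 33.5 ± 5.30 in the mutant and 126.0 ± 27.0 in the wild type (SD, n = 3 libraries each), 3.77-fold lower. Galactinol synthases start the synthesis of raffinose sugars. Bra004474, a match with no isoform named, was 3.73-fold lower, and Bra031663, matched to GOLS3, was 2.18-fold lower. The list was planned for the isoform GOLS1, so whether these 2 genes belong to the heat response is uncertain. Of 3 genes named for heat shock with no class, Bra018216 was 2.88-fold lower, Bra014918 had no read in the mutant, and Bra010780 was 2.06-fold higher.

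**Figure D5:**
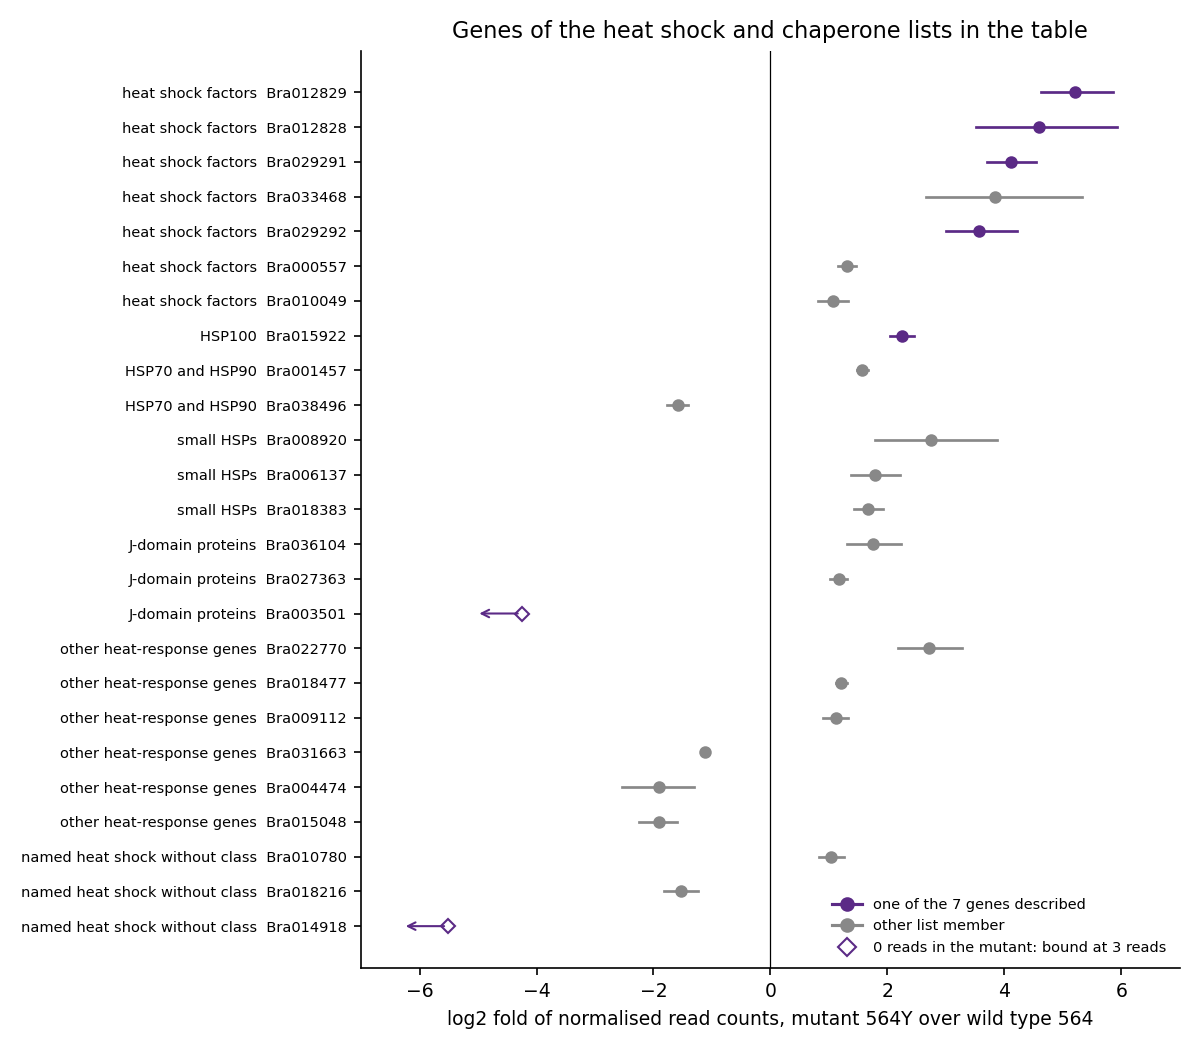
Log2 fold of normalised read counts, mutant 564Y over wild type 564, for the 25 genes of the table matched to the heat shock and chaperone lists, with 95% exact counting intervals. Purple marks the 7 genes described, grey the other list members, and open diamonds with arrows the bounds of the 2 genes with 0 reads in the mutant. All 7 heat shock factor genes and all 3 genes of the small heat shock protein list lie right of 0. MBF1C (Bra015048), both galactinol synthase genes and Bra018216, named heat shock protein with no class, lie left of 0.

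Likeness over the libraries separated few genes, because all of them were called for the same contrast. Of 2410 other recovered genes, 32.2% had a Pearson correlation over 0.95 with HSP101 across the 6 libraries on the log2(normalised count + 1) scale. The closest to HSP101 were a nitrate transporter NTL1 match (Bra010117), an F-box gene (Bra036901) and a nodulin family gene (Bra034390), each with a Pearson correlation of 0.998. The closest to Bra012828 were Bra022214, Bra022722 and CYP702A6 (Bra039554), and to Bra029291 they were Bra012607, the haloacid dehalogenase-like gene Bra005174 and Bra010724. None of the 9 closest genes belonged to the heat shock lists. Those lists hold only 22 of the 2411 recovered genes, so this was likely in any case and says nothing of likeness among heat shock genes.

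Markers of other organs in the table were few. Root markers had 2 higher and 2 lower genes, flower markers 2 higher and 0 lower, and seed markers 2 higher and 0 lower, beside 59.7% higher over the table. The higher root markers were RHD2 (Bra029194), an oxidase of root hairs, at 56.7 normalised reads in the mutant and 7.83 in the wild type, and MLP34 (Bra003939) at 31.3 in the mutant and 0.347 in the wild type. The lower ones were PERK13 (Bra016218), a receptor-like kinase also named root hair specific, at 0 reads in the mutant and 23.9 normalised reads in the wild type, and RCH2 (Bra026991) at 493.0 in the mutant and 1686 in the wild type. Of the flower markers, the AGL9 homolog Bra010955, a floral MADS-box factor, averaged 25.7 in the mutant and 0.675 in the wild type. In samples of whole shoots, a change in the share of organs or cell types cannot be told apart from a change of RNA per cell, and its part in the heat shock values was not tested.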

How the data were processed

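The authors deposited 1 table of 2958 called genes. The submitters' processing notes list DESeq 1.10.1, TopHat2 2.0.12 and Bowtie2 2.2.3 without saying what each did, and build, annotation and counter are not given in the sources. Per the file headers, the table gives the mean read count (a signal) and the base mean (reads over a size factor, averaged) of each group, the log2 ratio, the authors' p-value and its adjusted value. A base mean of 0.001 stood for 0 reads, and 0 of the gene identifiers occur in the RefSeq gene table of assembly CAAS_Brap_v3.01, so neither coordinates nor sequences are given.

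Whole library counts were worked out from the group sums and base means, using the steps left by genes with 1 read. The mean read counts times 3 were whole within 0.001 in 2958 of 2958 genes. A single solution existed for 2424 genes in the mutant and 2894 in the wild type (2411 in both, 81.5%). Size factors were 1.02, 1.04 and 1.04 in the mutant and 0.961, 0.983 and 0.988 in the wild type.

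The 7 genes, the lists and their matching words were chosen with earlier results of these data known. Named were the 7 genes and, per list, the 3 with the largest absolute log2 ratio, plus genes at 0 reads, with the remaining list genes added. Galactinol synthase genes, DREB2-2 and the sti1-like gene were matched as synonyms. P-values would measure the spread between libraries that the labels call biological replicates. Intervals and limits (3 reads) cover counting error only. The edgeR 4.0.16 quasi-likelihood test on the recovered counts was an alternative, beside DESeq2 1.42.0, other scalings, pseudocounts and left-out libraries. Computations used Python 3.11.15 and scipy 1.17.1.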

Additional observations from a re-analysis of the deposited data

How the results depend on the processing

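No paired analysis was possible because libraries A, B and C cannot be tied to the replicate numbers of the labels. Of 102 recomputed values, 72 stayed within the spread between libraries or within 1.5 times a count. The other 30 moved and 0 reversed. Most of these moves follow from the setting itself. A lower read limit or a common scaling shift moves a value by a set amount, and stricter list limits can only drop genes. The absence of reversals says nothing of stability. List counts and pair ratios have no direction to reverse, and the genes were picked for a difference between the groups. The 102 values leave out 14 that could hardly move. These are 9 counts of genes called by edgeR or DESeq2 and 5 deposited ratios equal to the main value. Some of the 102 could hardly move either. The HSFA7A ratio in the mutant was 5.72 from base means and from mean read counts. A base mean limit of 10 left the 18 higher and 7 lower list genes unchanged. The 72 that stayed are therefore no measure of stability. The difference of mean log2(normalised count + 1), mutant minus wild type, was 4.10 for Bra012828, 5.20 for Bra012829, 4.09 for Bra029291, 3.60 for Bra029292 and 2.21 for HSP101. Scaling over the called genes themselves moved log2 values by -0.32 with TMM and -0.85 with DESeq2 size factors. It changed the direction of 0 of 25 heat shock list genes, which was certain beforehand. Every called gene had an absolute log2 ratio of at least 1, and both shifts are smaller. With DESeq2 size factors the differences were 3.37, 4.40, 3.27, 2.81 and 1.37 in the same order, and with TMM Bra012828 had 3.84 and HSP101 1.90. With a pseudocount of 5, Bra012828 had 3.06. Leaving out 1 library gave 3.95 to 4.24 for Bra012828, 4.70 to 5.54 for Bra012829, 3.90 to 4.38 for Bra029291, 3.07 to 3.96 for Bra029292 and 2.09 to 2.40 for HSP101. With a limit of 1 read instead of 3, the bounds moved to -7.09 on the log2 scale for Bra014918 (from -5.51) and to -5.83 for Bra003501 (from -4.25), and the deposited ratios of -15.42 and -14.17 rest on the 0.001 that replaces 0. With a log2 limit of 2 in place of 1, 8 heat shock list genes were higher and 2 lower, and by symbol alone 11 and 3. All 2411 recovered genes passed an adjusted p of 0.05 in edgeR (1354 higher and 1057 lower), also without each library, and 2409 in DESeq2; since every gene was picked for its difference, this says nothing of stability. Wild type counts of 2 to 13 reads per library limit the folds of Bra012828, Bra012829 and Bra029292.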
